A study of Mus musculus with 31 samples.

Results

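Open chromatin was examined at 10 mouse genes of the matricellular and elastic fibre matrix: Fn1, Tnc, Postn, Sparc, Thbs1, Thbs2, Fbn1, Eln, Vcan and Fbln5. They were given as a list of names, by a rule that uses no measured value but was set with earlier results of these data known, and all 10 were found among the 21938 protein-coding genes of chromosomes 1 to 19, X and Y. The values came from 1 ATAC-seq library of NIH-3T3 cells, an established line of mouse fibroblasts, without an introduced transcription factor and with no treatment given in its labels. In ATAC-seq the transposase Tn5 inserts adapters where DNA is accessible, so that local pile-ups of fragments mark open promoters and enhancers. The list for this library held 63456 peaks, and the other 30 samples of the series, which carry 1 of 13 overexpressed transcription factors or the rtTA3G control, were not analysed here. With 1 library there was no replicate and no test, and every value below describes this library.

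Matricellular proteins are secreted into the matrix, where they tune the contacts of cells with collagen, growth factors and integrins more than they bear load. Elastic fibres consist of a core of cross-linked elastin laid on a scaffold of fibrillin microfibrils, with fibulins tying the parts to each other and to the cell. Fibroblasts are a main source of both groups of proteins, and several of the genes are known to be induced by serum, TGF-beta and wounding.

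For each peak, the fold enrichment is the number of fragments covering the summit divided by the number expected from the surrounding signal, each with 1 added. The smallest expected number, used where the surroundings were quiet, was 2.81 fragments. Intervals on fragment numbers are 95% exact Poisson intervals and cover counting error only. They do not cover the choice of a summit or of the deepest of several peaks. Whether intervals overlap is given as description and is not a test. A peak was called a promoter peak of a gene where it came within 1 kb of a transcription start site (TSS) of the gene, whichever transcript it belonged to, a gene-body peak when it otherwise overlapped the gene, and a flanking peak when it lay up to 50 kb outside. Coordinates are in mm10 and count from 1. The principal TSS is that of the annotation's principal transcript. A peak described as at the TSS of another gene came within 1 kb of it.

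Of the 10 genes, 8 had a promoter peak, beside 53.7% of all protein-coding genes, and the 2 without one were Postn and Eln. Genes with more annotated starts have more chances of a promoter peak. The 10 genes had from 2 to 11 distinct starts, and the comparison was not matched for this. A gene-body peak was present in 7 of the 10, beside 34.3% of coding genes, and was lacking in Fn1, Postn and Vcan. That share covers coding genes of any length, whereas all 10 genes were longer than 10 kb. Of coding genes of at least 10 kb, 50.3% had no gene-body peak. All 10 had a flanking peak, as did 81.1% of coding genes, with 1 to 14 peaks per gene and a median of 6.5 beside 4 for coding genes. In total there were 12 promoter peaks, 28 gene-body peaks and 68 flanking peaks. Their fold enrichment ran from 2.43 to 17.9 and their summit depth from 11 to 188 fragments, beside a median of 6.04 and of 29 fragments over all peaks of the library. All 28 gene-body summits lay in introns.

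**Figure D1:**
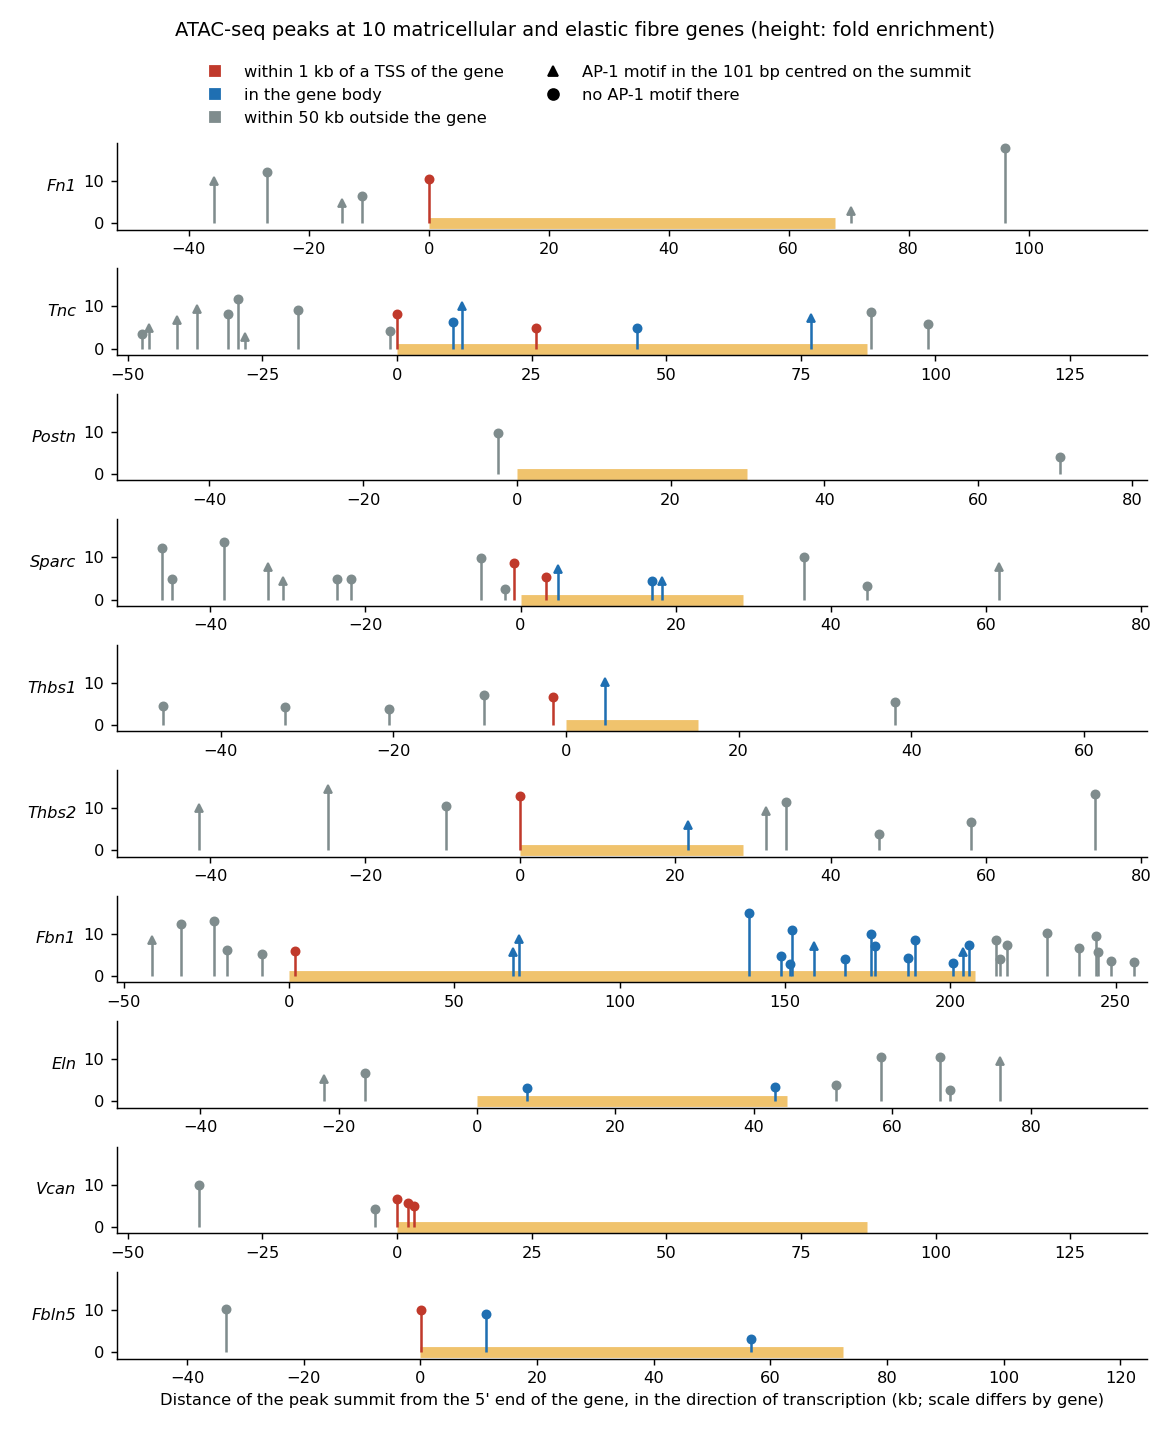
Peaks at each gene, placed by the distance of the summit from the 5′ end of the gene in kb and drawn at the height of their fold enrichment. The yellow bar is the gene, red, blue and grey mark promoter, gene-body and flanking peaks, and triangles have the AP-1 motif within 50 bp of the summit. Fbn1 carries 15 gene-body peaks, most of them towards its 3′ end, while Fn1, Postn and Vcan have none.

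The DNA just upstream of the annotated start sites differed between these genes. The 120 bp before the most upstream TSS within 500 bp of the principal one are given 5′ to 3′ on the strand of the gene for the promoter with the highest fold (Thbs2), the one with the most fragments at its principal start (Fn1), that of Thbs1 and those of the 2 genes without a promoter peak (Postn and Eln). The capitals mark the GC box GGGCGG, the CCAAT box CCAAT and the TATA box TATAAA, each searched on both strands. They come from chr17:14694236-14694355, chr1:71653201-71653320, chr2:118111756-118111875, chr3:54360989-54361108 and chr5:134747324-134747443, on the minus strand for Thbs2, Fn1 and Eln and on the plus strand for Thbs1 and Postn.
Thbs2: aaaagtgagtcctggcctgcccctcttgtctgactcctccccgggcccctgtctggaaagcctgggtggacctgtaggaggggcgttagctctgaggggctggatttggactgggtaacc
Fn1: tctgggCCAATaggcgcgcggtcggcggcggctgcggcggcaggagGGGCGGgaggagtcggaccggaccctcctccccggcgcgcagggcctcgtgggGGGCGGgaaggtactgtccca
Thbs1: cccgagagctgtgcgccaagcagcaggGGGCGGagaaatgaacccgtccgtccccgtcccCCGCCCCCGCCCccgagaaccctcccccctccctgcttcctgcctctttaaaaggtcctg
Postn: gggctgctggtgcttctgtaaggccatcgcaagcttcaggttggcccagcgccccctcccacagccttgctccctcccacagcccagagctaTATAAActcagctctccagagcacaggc
Eln: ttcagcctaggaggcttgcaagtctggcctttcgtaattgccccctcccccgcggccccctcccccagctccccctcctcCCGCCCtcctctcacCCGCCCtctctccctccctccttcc
The Fn1 stretch held 2 GC boxes, starting 74 and 21 bp before the start, and a CCAAT box 114 bp before it. Thbs1 had 3 GC boxes and Eln 2, and the Thbs2 stretch had none of the 3 motifs. A TATA box was found in Postn alone among the 10 genes, 28 bp before the start, and in 6.32% of all coding genes. GC boxes were present in 5 of the 10, namely Fn1, Thbs1, Eln, Vcan and Fbln5, beside 34.0% of coding genes, and CCAAT boxes in Fn1, Fbn1 and Vcan, beside 23.5%. The TGACTCA motif was in none of these stretches and in 1.93% of those of coding genes. These stretches were placed by annotated starts and not by summits, so they are not always the most open sequence. The Thbs1 summit was 1514 bp upstream of its TSS, and the deeper Sparc promoter summit 3882 bp upstream of the principal TSS. The Fbn1 promoter peak lay 1220 bp from its principal TSS. A match of letters is not evidence that a factor was bound.

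Fibronectin, encoded by Fn1 (chr1:71585520-71653200, minus strand), is a dimeric glycoprotein that fibroblasts assemble into fibrils through integrins. Its promoter peak at chr1:71652653-71654054 had its summit 24 bp upstream of the principal TSS. It held 117 fragments (interval 96.8 to 140.2) where 10.2 were expected, with a fold of 10.5 and a −log10 q of 76.1. Among coding genes with a promoter peak, Fn1 stood at percentile 56.9 by fold but at percentile 89.0 by fragments. The same peak lay within 1 kb of the TSS of Apol7d, a gene annotated across the Fn1 start, so that the openness could not be assigned to either. No other peak lay in Fn1, and the peak-free stretch of 67.1 kb made up 99.2% of the gene. Upstream, peaks at 27078 and 35900 bp before the principal TSS had folds of 12.2 (89 fragments) and 9.99 (48 fragments). The peak with the highest fold of all 108, 17.9 with 188 fragments, lay within 50 kb of the 3′ end of Fn1 but at the TSS of Atic, a purine synthesis gene.

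Tenascin C, encoded by Tnc (chr4:63959785-64047015, minus strand), is a glycoprotein made transiently in development and in healing tissue. At its principal TSS, 53 fragments (39.7 to 69.3) gave a fold of 8.27 and a −log10 q of 30.7. A further peak, with its summit 25907 bp inside the gene and its nearer edge 190 bp from the start of another annotated transcript, had 18 fragments (10.7 to 28.5) and a fold of 4.77, with a −log10 q of 6.96. The 2 intervals did not overlap, the internal start being the shallower. Intron 1 held a gene-body peak of fold 10.0 (46 fragments) 12140 bp after the TSS, above the principal promoter peak in fold, and another of 6.26. The peak of intron 20 had a fold of 7.27. The upstream side was crowded, with 9 flanking peaks, of which the deepest had 143 fragments and a fold of 11.8 at the TSS of the noncoding gene Gm11216. Another noncoding gene, 8030451A03Rik, is annotated across the Tnc promoter and these upstream peaks.

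Periostin, the product of Postn (chr3:54361109-54391037, plus strand), is a matricellular protein with fasciclin domains that is known as a target of TGF-beta. It had no promoter and no gene-body peak. The nearest peak, at chr3:54358539-54358998, ended 2127 bp before the principal TSS and had 36 fragments (25.2 to 49.8), a fold of 9.72 and a −log10 q of 24.9. No peak followed for 72.7 kb, so that the whole gene of 29.9 kb was without one. The only other peak within 50 kb had 14 fragments and a fold of 3.94. With a distance of 5 kb in place of 1 kb, Postn was counted among the genes with a peak at the promoter.

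SPARC, or osteonectin, is a secreted protein that binds calcium and collagen and acts in collagen assembly. Its gene Sparc (chr11:55394500-55423183, minus strand) was surrounded by 17 peaks, as many as Tnc and fewer than the 30 of Fbn1, with 2 promoter, 3 gene-body and 12 flanking peaks. A promoter peak 36 bp from the principal TSS covered the start of transcript Sparc-202 and had 58 fragments (44.04 to 74.98), with a fold of 5.32 and a −log10 q of 22.4. The other, with its summit 3882 bp upstream of the principal TSS and its nearer edge 569 bp upstream of the start of Sparc-208, had 123 fragments (102.2 to 146.8), with a fold of 8.71 and a −log10 q of 70.0. These intervals did not overlap, the more upstream site being the deeper in this library. Another deep site followed 8183 bp upstream, with 118 fragments and a fold of 9.82. In the gene body, intron 1 had a peak with 54 fragments and a fold of 7.13, and introns 5 and 4 had folds of 4.49 and 4.39. At 10.5 gene-body peaks per 100 kb, Sparc was at percentile 96.9 of the 14164 coding genes of at least 10 kb. The highest fold in its flanks, 13.5, was at the TSS of Atox1.

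Thrombospondins are secreted calcium-binding proteins, of which the products of Thbs1 and Thbs2 are known to restrain the growth of blood vessels, and that of Thbs1 to activate latent TGF-beta. Thbs1 (chr2:118111876-118127133, plus strand) had 1 promoter peak, 1869 bp wide, which reached the TSS with its end while its summit was 1514 bp upstream. There it had 53 fragments (39.7 to 69.3), a fold of 6.55 and a −log10 q of 25.2. The peak also lay within 1 kb of the TSS of Gm13986, annotated upstream of Thbs1. Intron 7 of Thbs1 had the higher fold, 10.2 with 68 fragments (52.8 to 86.2), and the intervals of the 2 peaks overlapped. The highest flanking fold was 7.02, at 9510 bp upstream.

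Thbs2 (chr17:14665500-14694235, minus strand) had the highest promoter fold of the 10 genes. Its peak, with the summit 44 bp upstream of the principal TSS, held 73 fragments (57.2 to 91.8) where 4.77 were expected, with a fold of 12.8 and a −log10 q of 55.9. This placed it at percentile 78.6 by fold and percentile 59.4 by fragments. A flanking peak 24758 bp upstream was of similar depth, at 72 fragments (56.3 to 90.7), and had a fold of 14.6. The gene body held 1 peak, in intron 17, with 22 fragments and a fold of 6.04.

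Fibrillin 1 is the main building block of microfibrils, and mutations of its gene cause Marfan syndrome in people. Fbn1 (chr2:125300594-125507993, minus strand), at 207.4 kb the longest of the 10 genes, had the lowest promoter fold among those with a promoter peak. The peak, 1598 bp wide, covered the start of another annotated transcript and lay 1220 bp from the principal TSS. It had 38 fragments (26.9 to 52.2), a fold of 5.96 and a −log10 q of 17.0, at percentile 15.1 by fold. It also lay within 1 kb of the TSS of Gm9913, a coding gene annotated at the same place. The gene body was far richer, with 15 peaks. The deepest, in intron 22 and 139214 bp from the principal TSS, had 120 fragments (99.5 to 143.5) and a fold of 14.9, an interval that did not overlap that of the promoter peak. Peaks in introns 31 and 45 had folds of 10.9 (86 fragments) and 9.82 (59 fragments). The other 12 had folds from 2.88 to 8.62 and from 15 to 71 fragments. The gene-body peaks were uneven. With the gene divided into 3 equal parts from its 5′ end, the parts held 1, 1 and 13 of them. Pooled, the 23102 gene-body peaks of coding genes of at least 10 kb were split 33.7%, 33.4% and 33.0%. A pooled split does not show how uneven single genes are, so how unusual Fbn1 is was not tested. From intron 22 to the end of the 3′ flank, 22 peaks stood within 117.1 kb. The stretch between intron 22 and the 2 peaks of intron 5, 68.8 kb long, had none. On the other side, the highest flanking fold, 12.9 with 110 fragments, was 22809 bp upstream of the principal TSS.

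Tropoelastin, the precursor of elastin, is encoded by Eln (chr5:134702593-134747323, minus strand). No peak lay within 1 kb of its 5 annotated start sites, and the nearest was 7158 bp inside the gene. This was a peak of intron 1 with 14 fragments (7.65 to 23.5) and a fold of 3.23. The other gene-body peak, in intron 36, had 17 fragments (9.90 to 27.2) and a fold of 3.30, and both were below the median depth of 29 fragments. The deeper flanking peaks lay downstream in or at Limk1, a kinase gene, and the highest fold, 10.6 with 114 fragments, was at the TSS of Limk1.

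Fibulin 5 links elastin to microfibrils and to integrins. In Fbln5 (chr12:101746565-101819055, minus strand) a promoter peak with its summit 37 bp after the principal TSS had 47 fragments (34.5 to 62.5), a fold of 9.93 and a −log10 q of 31.8, at percentile 50.7 by fold and percentile 30.2 by fragments. Of the 2 gene-body peaks, that of intron 4 had 42 fragments (30.3 to 56.8) and a fold of 9.04, and that of intron 7 had 11 fragments, the lowest of all 108 peaks. A single flanking peak, 33254 bp upstream within Trip11, had 51 fragments and a fold of 10.2. The intervals of the 3 deeper peaks overlapped.

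Versican is a large chondroitin sulphate proteoglycan that binds hyaluronan in loose, expanding matrix. Vcan (chr13:89655312-89742509, minus strand) had 3 promoter peaks. The first, 241 bp upstream of the principal TSS, had 61 fragments (46.7 to 78.4), a fold of 6.62 and a −log10 q of 29.0. The others, 1845 and 2807 bp downstream near the start of Vcan-209, had 50 fragments (37.1 to 65.9) with a fold of 5.68, and 44 fragments (31.97 to 59.07) with a fold of 5.02. All 3 intervals overlapped, and a difference in depth between the peaks was not tested. Both downstream peaks also lay within 1 kb of the start of Gm4117, a gene annotated across the Vcan start. The rest of Vcan, 84.0 kb or 96.4% of the gene, had no peak. Of the 2 flanking peaks, the higher, 37099 bp upstream within Xrcc4, had 37 fragments and a fold of 9.98.

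**Figure D2:**
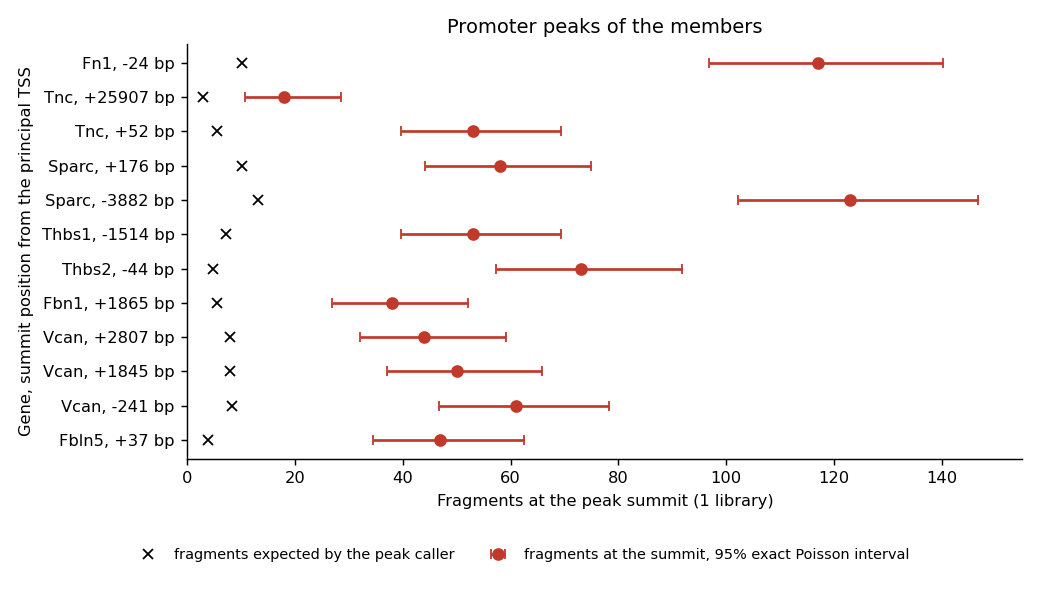
Fragments at the summit of the 12 promoter peaks (points, with 95% exact Poisson intervals) and fragments expected by the peak caller (crosses), by gene and summit position from the principal TSS. Fn1 at 117 and the upstream Sparc peak at 123 stand above the other 10 peaks, whose counts run from 18 to 73.

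Ranking the promoters by fold and by fragments gave different orders. By fold, the order of the strongest promoter peaks was Thbs2, Fn1, Fbln5, Sparc, Tnc, Vcan, Thbs1 and Fbn1. By fragments, Sparc (123) and Fn1 (117) led, and their intervals overlapped each other but none of the other genes' intervals. Thbs2 (73), Vcan (61), Tnc (53), Thbs1 (53), Fbln5 (47) and Fbn1 (38) followed, and no neighbours in this order were separated by their intervals. The expected number in the denominator of the fold was 13.2 at the upstream Sparc peak and 10.2 at Fn1, and between 3.83 and 8.37 at the strongest promoter peaks of the other genes. The median fold over the 8 genes was 8.49, beside 9.86 for coding genes with a promoter peak.

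**Figure D3:**
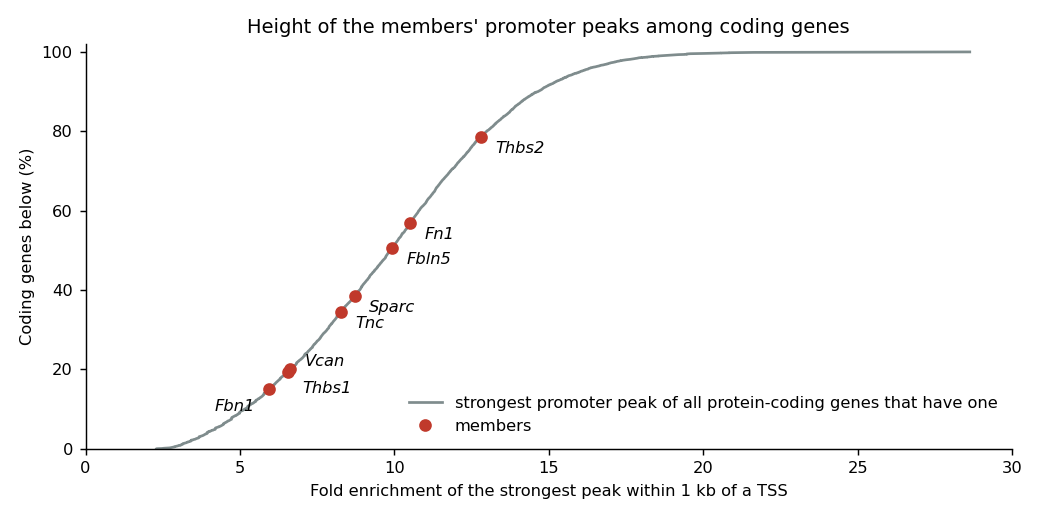
Fold enrichment of each gene's strongest promoter peak against the percentage of coding genes with a lower one, over the 11788 coding genes that have a promoter peak. The 8 genes run from percentile 15.1 (Fbn1) to 78.6 (Thbs2).

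CpG content differed widely between these promoters. Over 500 bp to either side of the principal TSS, the ratio of observed to expected CpG was 0.697 in Fn1 and 0.658 in Fbln5, and below 0.6 in the other 8 genes. It was lowest in Postn (0.214) and Sparc (0.217), followed by Fbn1 (0.336), Thbs2 (0.374), Eln (0.381), Tnc (0.495), Vcan (0.557) and Thbs1 (0.573). Of coding genes with a ratio of at least 0.6, 82.9% had a promoter peak, and of those below, 27.3%. Among the genes studied, 2 of 2 above the limit and 6 of 8 below it had one. The 27.3% pools all ratios below 0.6, whereas Vcan and Thbs1 were just under it. The shares were not matched for ratio. Postn, without a promoter peak, and Sparc, with 2, had nearly the same ratio. Counted among the 6 was Fbn1, whose peak lay 1220 bp from the principal TSS and so outside the window of its ratio. The ratio at that peak was not measured. The Eln window was rich in G and C (63.9%) but not in CpG.

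**Figure D4:**
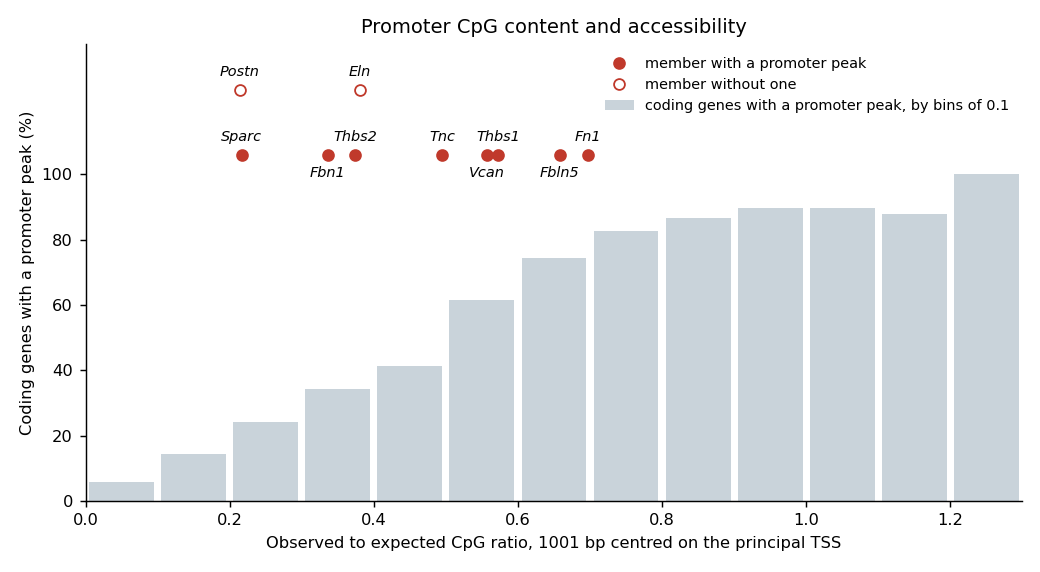
Percentage of coding genes with a promoter peak (bars) by the ratio of observed to expected CpG around the principal TSS, with the 10 genes marked above at their own ratio. The 2 open circles, Postn at 0.214 and Eln at 0.381, are the genes without a promoter peak. The Fbn1 promoter peak lay outside the window of its ratio.

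Gene-body peaks depend on the length available. The 28 gene-body peaks over 669.3 kb came to 4.18 per 100 kb, beside 2.20 over all coding genes, and Fbn1 alone carried 15 of them. Without Fbn1, 13 peaks remained and the density was 2.81 per 100 kb. Sparc, Fbn1 and Thbs1 stood at percentiles 96.9, 90.4 and 88.0 of density among coding genes of at least 10 kb, of which 50.3% had no gene-body peak at all. These ranks rested on 3, 15 and 1 peaks, so that 1 peak in a short gene such as Thbs1 was enough for a high percentile.

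**Figure D5:**
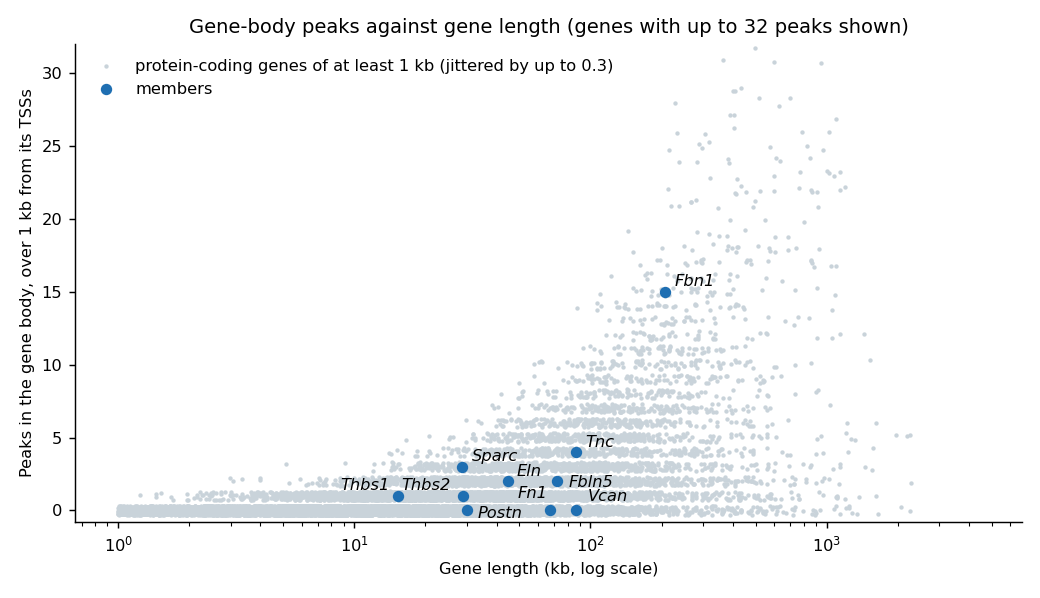
Number of gene-body peaks against gene length in kb on a log scale for protein-coding genes (grey) and the 10 genes studied (blue). Fbn1 has 15 peaks in 207.4 kb and Sparc 3 in 28.7 kb, while Vcan, at 87.2 kb, and Fn1, at 67.7 kb, have none.

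Sequence at the distal summits was compared next. AP-1, the dimer of Fos and Jun proteins that responds to serum and stress, recognises TGACTCA. Of all peaks more than 1 kb from any TSS, 26.4% had this motif on either strand within 50 bp of the summit, against 1.86% of windows of the same length 500 bp to the side. Around the 10 genes, 25 of 89 such peaks had it (28.1%), 10 of 28 in gene bodies and 15 of 61 in flanks, a share close to that background. They belonged to Fn1, Tnc, Sparc, Thbs1, Thbs2, Fbn1 and Eln, and none to Postn, Vcan or Fbln5, which had 2, 2 and 3 distal peaks. None of the 12 promoter summits had the motif, beside 8.15% of all TSS peaks. Distal peaks with it had a median fold of 7.27 and those without 6.21, and over the whole library the medians were 6.31 and 5.30. Of the 10 distal peaks with the highest fold around these genes, the Thbs2 peak 24758 bp upstream had the motif. The tenth had a fold of 10.4. Just below it came peaks with the motif at Thbs1, Thbs2, Tnc and Fn1, with folds of 10.2, 10.1, 10.0 and 9.99. Between these lay peaks without it at Fbln5, Fbn1 and Sparc. The count among 10 thus depended on the cut, and no share for the highest distal peaks of the library was taken.

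The summit windows of the strongest peaks with the motif are shown for Thbs2 (chr17:14718943-14719043), Thbs1 (intron 7, chr2:118116371-118116471), Tnc (intron 1, chr4:64034825-64034925) and Fn1 (chr1:71689025-71689125), each 5′ to 3′ on the strand of the gene, with TGACTCA or its reverse complement in capitals.
Thbs2, upstream: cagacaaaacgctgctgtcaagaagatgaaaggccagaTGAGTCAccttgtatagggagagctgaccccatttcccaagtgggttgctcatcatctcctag
Thbs1, intron 7: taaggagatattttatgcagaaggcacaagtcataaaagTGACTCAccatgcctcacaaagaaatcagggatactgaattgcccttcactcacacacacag
Tnc, intron 1: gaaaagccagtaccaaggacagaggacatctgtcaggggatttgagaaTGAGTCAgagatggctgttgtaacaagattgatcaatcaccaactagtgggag
Fn1, upstream: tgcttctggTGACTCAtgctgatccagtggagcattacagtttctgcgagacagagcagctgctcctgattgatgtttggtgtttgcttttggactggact
In Thbs2, Thbs1 and Tnc the motif lay near the centre of the window, starting at base 39, 40 and 49, the summit being base 51, and in Fn1 it started at base 10. The corresponding peaks of Fbn1 (intron 5, fold 8.62, 36 fragments), Sparc (58537 bp after the principal TSS, beyond the 3′ end, fold 7.75, 41 fragments) and Eln (within Limk1, fold 9.63, 85 fragments) had it at bases 14, 37 and 77.

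For contrast, 3 sites without the AP-1 motif are shown, picked after their values were seen: the strongest Fbn1 peak in intron 22 (chr2:125368729-125368829), the Fbln5 peak in intron 4 (chr12:101807688-101807788) and the peak nearest to Postn (chr3:54358658-54358758).
Fbn1, intron 22: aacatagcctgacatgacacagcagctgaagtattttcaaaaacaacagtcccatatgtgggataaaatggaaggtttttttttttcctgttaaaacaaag
Fbln5, intron 4: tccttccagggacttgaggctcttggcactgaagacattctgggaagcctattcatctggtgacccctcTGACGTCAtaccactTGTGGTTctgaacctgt
Postn, upstream: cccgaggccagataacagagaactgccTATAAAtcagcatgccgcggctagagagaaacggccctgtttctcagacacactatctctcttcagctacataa
The Fbln5 window held TGACGTCA, the cAMP response element, which binds CREB and related factors, and TGTGGTT, a RUNX motif, both in capitals. TGACGTCA was found at 2 of the 89 distal summits, those of Fbln5 and 1 of Sparc, beside 0.206% of all distal peaks, a count too small to set against that share. The RUNX motif was at 4 of 89 (4.49%), beside 5.05%. The capitals in the Postn window mark TATAAA, which was at 3.37% of these distal summits and at 4.15% of all. The TEAD motif GGAATGT was at 2.25% and 3.06% and the C/EBP motif TTGCNNAA at 7.87% and 4.49%.

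Relatives of the 10 genes gave a mixed picture within each family. Among fibulins, the fold of the strongest promoter peak was 9.93 in Fbln5, 9.09 in Fbln2 (85 fragments), 5.18 in Efemp1 and 4.24 in Efemp2, and Fbln1 had no promoter peak. Of the fibrillins, Fbn2 had neither a promoter nor a gene-body peak, with a CpG ratio of 0.813 and a length of 201.9 kb close to that of Fbn1. For thrombospondins, Thbs3 had a fold of 8.03 (59 fragments), between Thbs2 and Thbs1, and Thbs4 and Comp had no promoter peak. In the tenascins, Tnr had a promoter fold of 4.09 with 16 fragments, below the 53 of Tnc, and Tnn and Tnxb had no promoter peak. Sparcl1, a close relative of Sparc, had a fold of 12.3 with 66 fragments, and the more distant relatives Smoc1, Smoc2, Spock1, Spock2 and Spock3 had no promoter peak. Tgfbi, which like Postn encodes a protein with fasciclin domains, had a fold of 5.26 with 26 fragments. In the hyalectan family of Vcan, Bcan had a promoter peak of 14 fragments and fold 3.14, and Acan and Ncan had none.

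Other matrix genes were counted the same way, to be read beside the 53.7% of all coding genes with a promoter peak. Of 16 elastic fibre and microfibril partners, 12 had a promoter peak, led by Ltbp1 (fold 14.1), which binds latent TGF-beta to the matrix, Emilin2 (10.7) and Fbln2. Of 21 other matricellular genes, 10 had one, led by Sparcl1, Fstl1 (9.26) and Ccn2 (8.82), the latter encoding connective tissue growth factor. Of 5 hyalectans and link proteins, 1 had one. Of 11 fibrillar collagen genes, 8 had one, led by Col5a2 (13.4), Col5a3 (8.91) and Col11a1 (7.90). Of 21 basement membrane genes, 12 had one, led by Nid2 (11.4), Agrn (10.3) and Lamc1 (9.96). Among these 12, Col4a1 and Col4a2 had identical values at their strongest promoter peak (fold 8.15, −log10 q 25.2, 43 fragments). The same peak may thus be counted for both. Marker genes were counted as well. Their lists were chosen with earlier results of these data known, so they are no independent check of the line's label. Of 11 fibroblast markers, 11 had a promoter peak, from Vim with 114 fragments down to Prrx1 with 22 and Thy1 with 12. Col1a1, Col1a2 and Col3a1 among them are also fibrillar collagen genes counted above. Promoter peaks were present in 1 of 6 epithelial, 1 of 5 blood and 0 of 5 neuronal markers. These were Krt8 with 22 and Spi1 with 18 fragments, and the Prrx1 and Thy1 peaks were no deeper than that of Krt8.

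Peaks were shared with neighbours in several places. Of the 68 flanking peaks, 7 were within 1 kb of the TSS of another gene, 5 of these of a coding gene, and 26 lay inside another gene. Of the 12 promoter peaks, those of Fn1, Thbs1 and Fbn1 and both downstream peaks of Vcan were also within 1 kb of another gene's TSS. An accessible site was not linked here to any gene by a measurement other than distance, and the abundance of the transcripts was not measured in this library.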

How the data were processed

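One ATAC-seq library of parental NIH-3T3 cells was analysed. Per the labels, 50000 cells were transposed and libraries amplified for 12 cycles. The authors aligned paired-end 75-nt reads to mm10 with STAR 2.5.3a, kept unique alignments to the autosomes, X and Y, discarded duplicates (Picard) and ran MACS2 2.1.1.20160309 on the read pairs. A shift of the reads for the Tn5 cut is not given in the sources used here. The authors deposited for each peak the fold enrichment, −log10 p and −log10 q at the summit and a score. The lowest deposited −log10 q was 1.302, and the files do not give the number of reads of this library, for which the study's methods state a range common to all samples.

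Fragments at the summit and their expectation were solved from fold and −log10 p under a Poisson tail. Of the solutions, 99.9984% were within 0.02 of a whole number, and the procedure was tested on simulated data. Genes were from GENCODE M21 and sequence from the RefSeq copy of GRCm38.p6, the same build. A gene's strongest promoter peak was that of highest fold.

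Members and gene lists were chosen with earlier results of these data known. Named were all 10 genes, the closer family relatives listed for them, the 3 genes of highest promoter fold in each other list, every promoter peak, the 3 gene-body peaks of highest fold and the flanking peak of highest fold per gene. Other peaks and genes named were chosen after their values were seen. In place of promoter summit windows, bases upstream of the TSS are shown. The software was SciPy 1.17.1, NumPy 2.4.6, matplotlib 3.10.9, pandas 2.3.3 and Python 3.11.15.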

Additional observations from a re-analysis of the deposited data

How the results depend on the processing

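Of 32 alternative values, 24 stayed within the limits set for them (1.5 times for a count, the counting interval for a share) and 8 moved. The number of genes with a promoter peak was 8 under each threshold on −log10 q or fold, with overlap of the TSS itself and with basic coding transcripts only, and 9 at 5 kb, where Postn joined. The share of coding genes with a promoter peak, 53.7%, was 52.01% at a −log10 q of at least 5, 48.75% at a fold of at least 5, 48.66% with overlap of the TSS itself and 62.78% at 5 kb. At a fold of at least 5, 17 of the 28 gene-body and 45 of the 68 flanking peaks remained, and flanks of 10 and 100 kb held 17 and 111 peaks. The share of distal peaks with TGACTCA, 28.1% beside 26.4% of all distal peaks, was 35.09% beside 30.68% at a fold of at least 5, 33.71% beside 36.52% in a longer summit window and 38.2% beside 40.79% over the whole peak, so which of the 2 was higher depended on the window.

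No paired analysis was possible because there was a single library without replicates. Intervals cover counting error only, and PCR duplicates removed by position are not counted molecules. A gene without a peak was below the caller's threshold at this depth, which does not show closed chromatin. The fold falls as surrounding signal rises, so the fragment numbers stand beside it.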
